A study of Mus musculus with 5 samples.

Results

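The effect of a high-fat diet on the liver of wild-type (WT) mice was read from 2 of the 5 arrays of this series, the WT array on high-fat diet and the WT array on chow. The arrays were chosen by their titles. All mice were on the C57BL/6 background. Liver RNA was labelled with Cy5 and hybridised to the Phalanx Mouse OneArray, a glass slide of long oligonucleotide probes read in 1 colour. The WT chow group and the WT high-fat diet group received no drug. The other 3 arrays held WT mice on high-fat diet with nordihydroguaiaretic acid (NDGA, 2.5 g per kg of food, a plant lignan that inhibits lipoxygenases), leptin-deficient ob/ob mice on chow, and ob/ob mice on chow with the same dose of NDGA. All groups had been on their diet for 16 weeks. RNA of 3 animals stood behind each group. The sources used here do not say whether it was pooled, nor do they give the sex of the mice, their age at the start or the composition of the diets. With 1 array a side there is no estimate of the spread between mice, so no test was run. Each difference below describes these 2 arrays, and levels on the other 3 arrays are given beside it for orientation only.

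The liver takes up fatty acids from blood, makes new ones from sugar, and either oxidises them, exports them as lipoprotein triglyceride or stores them in lipid droplets. Nuclear receptors that bind fatty acids set much of this balance: PPAR-alpha drives fatty acid oxidation, and PPAR-gamma, scarce in lean liver, drives lipid storage. Long feeding with fat is known to enlarge hepatic lipid droplets in mice, to bring macrophages into the tissue and to activate stellate cells, the pericytes that lay down scar collagen.

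Levels below are probe intensities after the 5 arrays were brought to a common distribution, and differences are log2(intensity + 50) on high-fat diet minus the same on chow, so a positive value is a higher level on high-fat diet. Because of the added 50, differences of dim genes come out smaller than their ratios. Genes were called expressed where the mean over the 2 arrays was at an intensity of 90.7 or above. This value was the median of 16637 genes on the array and kept 8319 of them. Across them the median difference was -0.01 and the SD over genes was 0.47. Where a gene had several bright probes (939 genes), they differed with an SD per probe of 0.36, so differences of that size are within the disagreement of probes. Rank correlations between arrays over the expressed genes ran from 0.892 to 0.973. The high-fat array correlated at 0.944 with chow and at 0.944 with high-fat diet with NDGA. With untreated ob/ob it correlated at 0.951 and with ob/ob chow with NDGA at 0.967. The chow array correlated at 0.973 with high-fat diet with NDGA and at 0.962 with untreated ob/ob. The part of such array-wide likeness in the differences was not tested. Markers of hepatocytes, the main liver cell, were present at a summed intensity of 230874 on chow and 238723 on high-fat diet (7 of 7 markers expressed). Very bright probes dominated this sum, such as Alb (65860 on chow, 65078 on high-fat diet), which was saturated, and Apoa1 (55010 and 58903). Equal sums therefore cannot show an equal share of hepatocytes, which was not tested. Defining markers of fat (Adipoq, Plin1, Fabp4), skeletal muscle (Acta1, Ckm, Myh4, Mylpf) and neutrophils (S100a8, S100a9, Camp) were below the filter. In each of these classes 1 marker was 2-fold or more above chow: Cfd for fat (marker sum 341 on chow, 850 on high-fat diet), Tnnt3 for muscle (1185 and 1485) and, itself below the filter, S100a8 for neutrophils (277 and 352).

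In all, 177 genes (2.13% of those expressed) stood 2-fold or more above chow on high-fat diet and 111 (1.33%) stood 2-fold or more below. At 1.5-fold the counts were 880 (10.6%) and 509 (6.12%). These percentages are the background against which the counts of each gene group are read. The genes of all groups together, olfactory receptors left out, stood above chow more often than this background. Of these 1235 genes, 237 reached 1.5-fold above chow and 73 below, and 75 and 20 reached 2-fold. A single group near those shares is thus not set apart from the other groups. Few of these genes could be checked on a second bright probe. Of the 177, 20 had several bright probes, of which 2 had every probe at 2-fold or more and 7 had probes that disagreed by sign or by over 1 on the log2 scale. Of the 111, 11 had several, with 1 and 6 in the same classes. Of the 177, 18 were below the filter on chow and passed it only through the high-fat array; 7 of the 111 passed only through chow. In contrast, 4685 genes (56.3%) lay within 1.25-fold of each other on the 2 arrays. The brightest 25% of the expressed genes held 56 genes higher and 56 lower, whereas the dimmest 25% held 17 and 7.

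**Figure D1:**
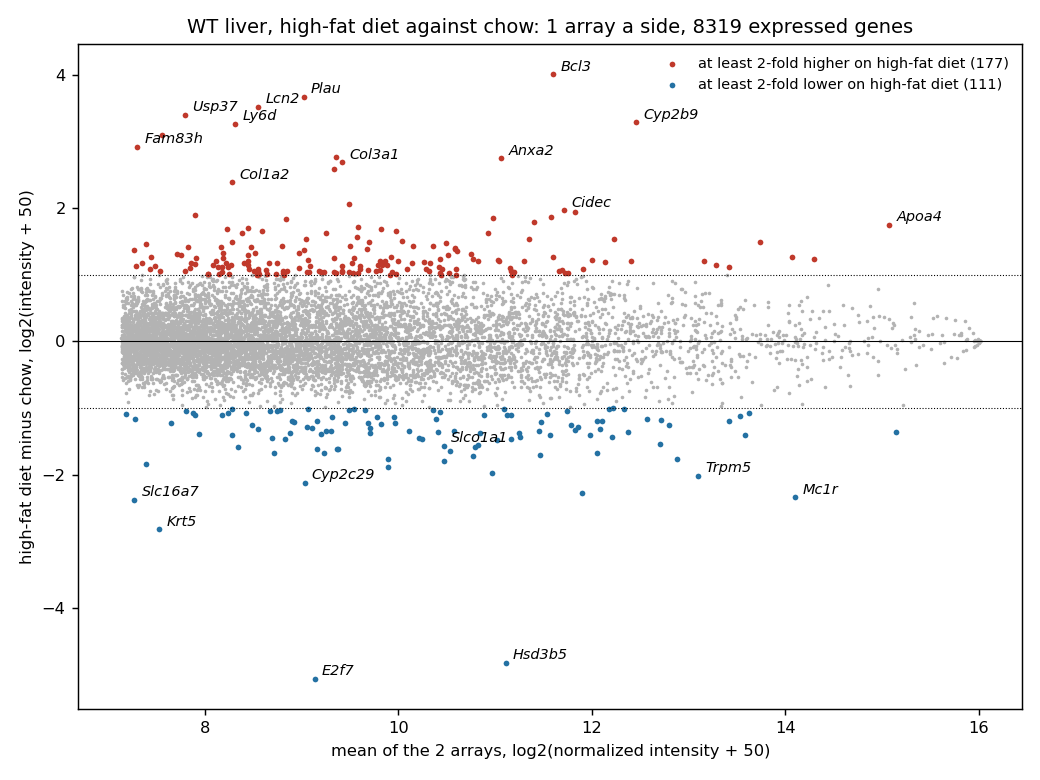
Log2 difference between the WT high-fat and WT chow arrays (y axis) against the mean of both arrays in log2(normalized intensity + 50) (x axis) for the 8319 expressed genes, with 1 point per gene. Red and blue points are the 177 genes at least 2-fold higher and the 111 at least 2-fold lower on high-fat diet, dotted lines mark 2-fold, and E2f7 and Hsd3b5 lie lowest at -5.06 and -4.82.

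The genes of the Cyp2b cluster on chromosome 7, cytochromes P450 that oxidise steroids and drugs, differed widely from each other. Cyp2b9, which is known to be expressed more in female than in male liver, read 1743 on WT chow, 17467 on WT high-fat diet, 13905 on high-fat diet with NDGA, 19997 on untreated ob/ob and 20659 on NDGA-treated ob/ob, a log2 difference of 3.29. Its neighbour Cyp2b13, also known as female-biased, read 351 on WT chow, 786 on WT high-fat diet, 698 on high-fat diet with NDGA, 1119 on untreated ob/ob and 1529 on NDGA-treated ob/ob, a difference of 1.06. Cyp2b10, the classic target of the drug-sensing receptor CAR, went the other way, with 431 on chow against 206 on high-fat diet, a difference of -0.91 (-0.58 as the mean of its probes). The chow array was thus the lowest of the 5 for Cyp2b9 and Cyp2b13, whereas for Cyp2b10 the high-fat array was the lowest. The start regions of these genes, 250 bases before to 50 bases after the start in RefSeq (build GRCm38.p6, plus strand, 5′ to 3′), are shown because the first pair is almost identical in sequence while the third is not. Capitals mark bases that differ between Cyp2b9 and Cyp2b13, and, in Cyp2b10, bases that differ from the aligned base of Cyp2b9.
Cyp2b9, chr7:26173159-26173458: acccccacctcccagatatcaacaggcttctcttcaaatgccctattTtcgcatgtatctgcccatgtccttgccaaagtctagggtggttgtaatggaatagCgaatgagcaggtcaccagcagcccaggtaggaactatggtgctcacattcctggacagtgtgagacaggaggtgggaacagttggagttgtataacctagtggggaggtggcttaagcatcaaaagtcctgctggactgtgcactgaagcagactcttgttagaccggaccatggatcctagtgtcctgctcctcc
Cyp2b13, chr7:26061245-26061544: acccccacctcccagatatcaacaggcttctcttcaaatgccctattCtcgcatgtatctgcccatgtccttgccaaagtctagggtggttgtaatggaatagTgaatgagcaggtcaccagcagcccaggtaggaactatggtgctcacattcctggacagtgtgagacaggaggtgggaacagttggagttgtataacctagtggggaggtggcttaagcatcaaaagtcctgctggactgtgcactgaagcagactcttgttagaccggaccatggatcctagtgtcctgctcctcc
Cyp2b10, chr7:25897408-25897707: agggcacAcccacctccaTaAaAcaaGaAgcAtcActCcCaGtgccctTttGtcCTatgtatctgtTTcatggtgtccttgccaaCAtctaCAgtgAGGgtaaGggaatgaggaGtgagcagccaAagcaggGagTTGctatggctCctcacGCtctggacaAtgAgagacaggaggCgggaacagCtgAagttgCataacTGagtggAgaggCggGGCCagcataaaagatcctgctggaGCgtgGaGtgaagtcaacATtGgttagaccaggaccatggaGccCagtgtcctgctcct
Cyp2b9 and Cyp2b13 were identical at 298 of 300 bases and differed by T48C and C104T, counted from the first base shown with the base of Cyp2b9 first. Cyp2b9 and Cyp2b10 had 229 identical and 57 different bases in the alignment, with 28 further columns opposite a gap. Genes this similar may also share sequence under their probes. Probe sequences were not used here, so signal shared between the probes of Cyp2b9 and Cyp2b13 was not tested, and this holds for other close families below (Gstm, Hsd3b, Serpina3, Cyp2c and Cyp2d genes).

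Genes whose level in liver differs between the sexes, through the pattern of growth hormone pulses, lay mostly below chow where male-biased and above it where female-biased. Among male-biased genes, 4 of 25 expressed were lower by 2-fold or more and 1 was higher, against 1.33% and 2.13% of all expressed genes. The median difference of this list was -0.21, or -0.13 when dim genes are kept. Hsd3b5, a steroid dehydrogenase of male mouse liver, read 11690 on WT chow, 367 on WT high-fat diet, 453 on high-fat diet with NDGA, 248 on untreated ob/ob and 231 on NDGA-treated ob/ob. Its difference of -4.82 (28.2-fold) was the second lowest of all expressed genes, and the chow array stood above all 4 others. Slco1a1, an organic anion and steroid uptake transporter, read 2397 on WT chow, 772 on WT high-fat diet, 452 on high-fat diet with NDGA, 157 on untreated ob/ob and 108 on NDGA-treated ob/ob (difference -1.57, mean over its probes -1.17). Nat8, an acetyltransferase, was lower with 6524 on chow against 2439 on high-fat diet (difference -1.40), and C6, a component of the terminal complement complex, with 6675 on chow against 3307 on high-fat diet (-0.46 as the mean difference of its probes). Cyp2d9, a male-biased steroid hydroxylase, went against the list at 1.03 (2366 on chow against 4896 on high-fat diet).

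Of the female-biased genes, 12 of 27 reached 1.5-fold above chow and 2 reached it below (median 0.42, or 0.14 when dim genes are kept). Over all expressed genes these shares were 10.6% and 6.12%. Of the 27, 19 lay above 0, beside 780 of the 1235 expressed genes of all lists, olfactory receptors left out. At 2-fold, 7 stood above chow and 0 below, against 2.13% and 1.33% of all expressed genes. Beside Cyp2b9 and Cyp2b13 these were Cyp17a1, which makes androgen precursors, with 1489 on WT chow, 4393 on WT high-fat diet, 4355 on high-fat diet with NDGA, 3610 on untreated ob/ob and 8275 on NDGA-treated ob/ob (difference 1.53), the monocarboxylate transporter Slc16a5 (1.46), the glutathione transferase Gstm2 (1.15), the lipoprotein receptor Vldlr (1.15) and the flavin monooxygenase Fmo1 (1.05). Slc16a5 was below the filter on chow (51.1 on chow against 228 on high-fat diet) and passed it only through the high-fat array. The bright probes of Gstm2 disagreed, with differences of 0.12 and 1.15, and their mean was 0.64. Of the 14 regulators and growth hormone signalling genes tied to this sex pattern, Onecut1, a transcription factor that also drives liver development, was the highest at 1.05 (0.62 as the mean of its probes). Bcl6, a repressor favoured in males, had a difference of -0.08, and Cux2, favoured in females, -0.15. Ghr, the growth hormone receptor, read 6367 on chow against 9402 on high-fat diet (difference 0.56), and Igf1, the growth factor that growth hormone induces in liver, read 5661 on chow against 4292 on high-fat diet (-0.40). Stat5b, which relays growth hormone signals to DNA, was below the filter (13.2 on chow against 19.6 on high-fat diet). Socs2, on both the male-biased and the regulator list, was also below it on the mean of the 2 arrays. It went against the male-biased list at 1.03 (44.4 on chow against 143 on high-fat diet). Igfbp2, an IGF-binding protein, read 2843 on WT chow, 1441 on WT high-fat diet, 2843 on high-fat diet with NDGA, 529 on untreated ob/ob and 542 on NDGA-treated ob/ob, a difference of -0.96.

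Part of the lipid storage genes stood well above chow, led by proteins that coat or fuse lipid droplets. Among PPAR-gamma targets, 5 of 15 expressed reached 2-fold above chow and 0 reached it below (median 0.55), against 2.13% and 1.33% of all expressed genes. The median is 0.39 when dim genes are kept, and Plin4 and Mogat1 were below the filter on chow, passing it only through the array on which they are high. Among lipid droplet proteins 3 of 15 reached it, 3 genes that are also on the PPAR-gamma list. The median of this list was 0.34, but -0.01 with the filter at the 75th percentile. Cidec, which joins droplets and lets lipid flow from the smaller into the larger, read 1654 on WT chow, 6606 on WT high-fat diet, 6915 on high-fat diet with NDGA, 7643 on untreated ob/ob and 12552 on NDGA-treated ob/ob, a difference of 1.97. Cidea, a related droplet protein, read 118 on WT chow, 488 on WT high-fat diet, 1127 on high-fat diet with NDGA, 1279 on untreated ob/ob and 5057 on NDGA-treated ob/ob (1.68), and Plin4, a perilipin, 61.8 on WT chow, 220.2 on WT high-fat diet, 173 on high-fat diet with NDGA, 185 on untreated ob/ob and 576 on NDGA-treated ob/ob (1.27). For these genes chow was the lowest of the 5 arrays, and for Cidec the 4 others lay within 6606 to 12552. Mogat1, which adds a fatty acid to monoacylglycerol, read 88.4 on chow against 319.8 on high-fat diet (1.42), and Gk, which makes the glycerol phosphate backbone, 1849 on chow against 3616 on high-fat diet (0.95). Cfd, the complement factor and adipokine adipsin, read 274 on WT chow, 789 on WT high-fat diet, 3181 on high-fat diet with NDGA, 21.9 on untreated ob/ob and 113 on NDGA-treated ob/ob (1.37), a pattern unlike that of the droplet genes because it was highest with NDGA on high-fat diet. Cfd is also the marker that carries the fat cell sum above, and the part of fat tissue in its level was not tested.

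Several other storage genes differed by less or read lower. Plin2, the main droplet coat protein of hepatocytes, read 17439 on chow against 17853 on high-fat diet (0.03), Plin5 had a difference of -0.43 and G0s2, an inhibitor of fat breakdown, -0.14. Fitm2, which helps droplets bud, was at 0.58 with bright probes at -0.04 and 0.58. Pparg itself read 496 on chow against 720.0 on high-fat diet (0.50), and Aqp7, a glycerol channel on the PPAR-gamma list, was lower (-0.66, but 0.12 as the mean of its probes). In triglyceride synthesis 5 of 14 genes reached 1.5-fold above chow and 0 reached it below (median 0.54): Mogat1 and Gk above, Gpat3 (0.73), Gpd1 (0.66) and Gpam (0.62, mean over its probes 0.27), the acyltransferase of the first step. The final enzymes Dgat1 (-0.25) and Dgat2 (0.23) stayed within the disagreement of probes, and Agpat1 was at -0.53. Lpin1, which makes diacylglycerol and also acts as a coactivator, read 8486 on chow against 12458 on high-fat diet (0.55). No lipolysis gene of 12 was 2-fold apart in either direction. Mgll, the monoglyceride lipase, was highest (0.64) and Pnpla2, which starts triglyceride breakdown, was at -0.34.

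In fatty acid synthesis, 6 of 26 genes reached 1.5-fold above chow and 2 reached it below (median 0.29). Insig2, which holds the SREBP precursors in the endoplasmic reticulum, read 7398 on WT chow, 15980 on WT high-fat diet, 8023 on high-fat diet with NDGA, 10487 on untreated ob/ob and 15742 on NDGA-treated ob/ob (difference 1.11), so that high-fat diet and ob/ob chow with NDGA were the highest arrays. Aacs, which activates acetoacetate for lipid synthesis, was at 1.01, the desaturase Fads1 at 0.80, Mid1ip1, an activator of acetyl-CoA carboxylase, at 0.62, and Mlx, the partner of ChREBP, at 0.64. Fasn, the fatty acid synthase, read 4148 on WT chow, 6386 on WT high-fat diet, 3856 on high-fat diet with NDGA, 8865 on untreated ob/ob and 13422 on NDGA-treated ob/ob (0.62). Acly (0.35) and Acaca (0.18), which supply its substrates, and Mlxipl, which encodes ChREBP (0.21), were closer to 0. Pklr, the pyruvate kinase that ChREBP controls, was lower at -0.64 (4600 on chow against 2935 on high-fat diet), and so was Nr1h2, which encodes LXR-beta (-0.69). Scd1, the main desaturase of liver, was saturated on both arrays and has no fold. Srebf1 was below the filter on this array design (3.99 on chow against 3.44 on high-fat diet).

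In cholesterol synthesis, 4 of 16 expressed genes reached 1.5-fold above chow and 1 reached it below (median 0.31, or 0.06 when dim genes are kept). Msmo1, a sterol demethylation enzyme, read 629 on WT chow, 1344 on WT high-fat diet, 1725 on high-fat diet with NDGA, 417 on untreated ob/ob and 1573 on NDGA-treated ob/ob (1.04), and Idi1 (0.85), Sc5d (0.82) and Nsdhl (0.69, mean over its probes 0.20), other enzymes of the same route, followed. Srebf2, the transcription factor of this pathway, was at -0.62 (2383 on chow against 1527 on high-fat diet), Fdps at -0.26 and Cyp51 at -0.16.

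Part of the fatty acid oxidation genes read higher, in both the peroxisomal and the mitochondrial route. In the peroxisome, 12 of 35 genes stood 1.5-fold or more above chow and 2 as far below (median 0.26), against 10.6% and 6.12% of all expressed genes. At 2-fold the counts were 1 and 1. Decr2, which handles unsaturated acyl chains in peroxisomes, read 887 on WT chow, 2234 on WT high-fat diet, 1687 on high-fat diet with NDGA, 892 on untreated ob/ob and 3243 on NDGA-treated ob/ob (1.29), and Crot, which passes shortened chains on as carnitine esters, 518 on WT chow, 1030 on WT high-fat diet, 776 on high-fat diet with NDGA, 633 on untreated ob/ob and 1066 on NDGA-treated ob/ob (0.93). The carriers and import proteins Abcd3 (0.87), Abcd2 (0.81), Pex7 (0.91), Pex16 (0.70) and Pex11a (0.65, mean over its probes 0.49) were also higher, as was the thiolase Acaa1a (0.72). The lowest members were Dao, which oxidises D-amino acids (-1.09, 162 on chow against 49.3 on high-fat diet, below the filter on high-fat diet), and catalase (Cat, -0.72). Ehhadh, the bifunctional enzyme of the classic PPAR-alpha response, was at 0.23.

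Of 21 genes of mitochondrial beta-oxidation, 6 reached 1.5-fold above chow and 0 reached it below (median 0.38). Hadh had the largest difference, 1.38, but its bright probes gave -0.25 and 1.38 (mean 0.57). Acadl (0.91), the medium-chain acyl-CoA synthetase Acsm3 (0.91), Acads (0.64), Cpt2 (0.63) and Acadvl (0.60) followed. Cpt1a, which admits long chains to mitochondria, was below the filter (75.4 on chow against 64.2 on high-fat diet), and Hadha was at 0.04. Ppara read 682 on chow against 854 on high-fat diet (0.30), its partner Rxra 1482 on chow against 1082 on high-fat diet (-0.44). Of 24 omega-oxidation genes and other PPAR-alpha targets, 5 reached 1.5-fold above chow and 1 reached it below (median 0.08). Cyp4a14, a fatty acid hydroxylase, read 859 on chow against 1396 on high-fat diet (0.67), whereas Cyp4f14 (-0.94), Fabp1, the liver fatty acid-binding protein (-0.50), Fgf21 (-0.23) and Angptl4 (-0.22) had negative differences. Cyp4a10 was saturated on both arrays, and Pdk4 was below the filter (10.9 on chow against 5.25 on high-fat diet). Among ketone body genes Bdh1, which interconverts the ketone bodies, was at 1.22 (2635 on chow against 6199 on high-fat diet, 0.81 as the mean of its probes). Slc16a7, which carries ketone bodies and lactate across membranes, was at -2.38, with 302 on WT chow, 17.5 on WT high-fat diet, 10.7 on high-fat diet with NDGA, 11.9 on untreated ob/ob and 14.3 on NDGA-treated ob/ob, a signal on chow alone. Slc16a6, on the same list, went the other way (1.64, 22.7 on chow against 177 on high-fat diet) but was below the filter on the mean of the 2 arrays.

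**Figure D2:**
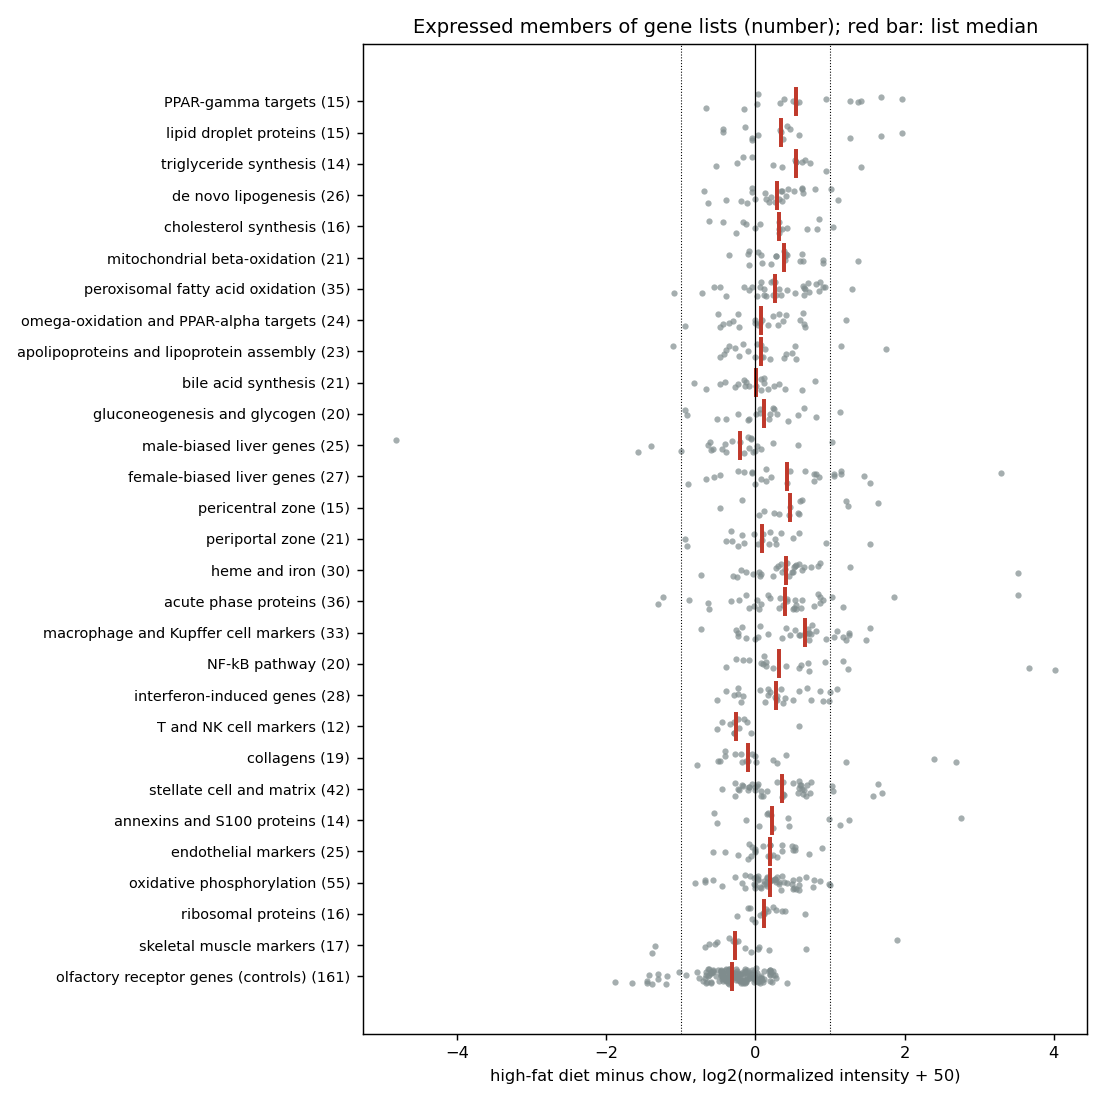
Log2 difference, high-fat diet minus chow, of the expressed members of 29 gene lists (1 grey point per gene, number of members in brackets) with the list median as a red bar. Medians ran highest for macrophage markers (0.67) and PPAR-gamma targets (0.55) and lowest for olfactory receptor genes (-0.31), and dotted lines mark 2-fold.

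Lipoprotein genes were mostly level, with a few wide differences (list median 0.08, with 2 of 23 2-fold or more above chow and 1 below). Apoa4, an apolipoprotein of fat-rich particles, read 18800 on chow and was saturated on high-fat diet, so it was at least 3.37-fold higher (log2 1.75, a lower bound). It read 64393 on untreated ob/ob, 63459 on NDGA-treated ob/ob and 12929 on high-fat diet with NDGA, and deposited values of 65000 or more count as saturated. Vldlr, which takes up triglyceride-rich lipoproteins, read 157 on WT chow, 409 on WT high-fat diet, 489 on high-fat diet with NDGA, 409 on untreated ob/ob and 655 on NDGA-treated ob/ob (1.15), chow being the lowest array. Pltp, the phospholipid transfer protein, was lower, with 3330 on WT chow, 1513 on WT high-fat diet, 3305 on high-fat diet with NDGA, 1572 on untreated ob/ob and 3312 on NDGA-treated ob/ob (-1.11). Apob, the backbone protein of secreted particles, was at -0.35, Mttp, which loads it with lipid, at 0.20, and Apoc3 at 0.49. Among uptake genes Lpl had a difference of 0.38. Cd36, a fatty acid transporter, was below the filter on the mean of the 2 arrays (20.7 on chow against 42.5 on high-fat diet). So was Fabp5, on the same list, which read lower (-1.15, 145 on chow against 37.9 on high-fat diet). Dbi and Apoc1 were saturated on both arrays.

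Of 21 bile acid synthesis genes, 0 reached 2-fold in either direction (median 0.01). Cyp7a1, its rate-limiting enzyme, read 343 on WT chow, 554 on WT high-fat diet, 1698 on high-fat diet with NDGA, 172 on untreated ob/ob and 612 on NDGA-treated ob/ob (0.62). Cyp8b1, which decides how much cholic acid is made, read 49717 on chow against 61963 on high-fat diet (0.32). The bile acid receptor Nr1h4 was at 0.25 and its target Nr0b2, a repressor, at 0.80 with 78.0 on chow against 173 on high-fat diet. Cyp2c70, which makes the muricholic acids of mice, was at -0.83 (15851 on chow against 8918 on high-fat diet) and Cyp39a1 at -0.66. In the transporters Abcb4, which flips phosphatidylcholine into bile, read 1045 on WT chow, 2661 on WT high-fat diet, 1360 on high-fat diet with NDGA, 1224 on untreated ob/ob and 3940 on NDGA-treated ob/ob (1.31). The efflux pump Abcc3 (0.73), the sterol transporter Abcg5 (0.67) and the glycerol channel Aqp9 (0.67) were at least 1.5-fold higher, although the mean over the probes of Aqp9 was 0.35. Slc51b, a subunit of the basolateral bile acid exporter, was lower with 1417 on WT chow, 622 on WT high-fat diet, 1009 on high-fat diet with NDGA, 582 on untreated ob/ob and 467 on NDGA-treated ob/ob (-1.13), while the canalicular pump Abcb11 was level (0.02).

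The last enzyme of glucose production and its entry enzyme read lower, and the enzyme that builds glycogen read higher. G6pc, which releases free glucose, read 52637 on WT chow, 27297 on WT high-fat diet, 30155 on high-fat diet with NDGA, 52054 on untreated ob/ob and 48452 on NDGA-treated ob/ob (-0.95), and Pck1, which commits carbon to glucose, 1231 on WT chow, 627 on WT high-fat diet, 841 on high-fat diet with NDGA, 871 on untreated ob/ob and 1094 on NDGA-treated ob/ob (-0.92; its bright probes gave -1.26 and -0.92). The chow array read highest for both genes, although the ob/ob arrays were close to it for G6pc. Gys2, the liver glycogen synthase, read 546 on WT chow, 1267 on WT high-fat diet, 847 on high-fat diet with NDGA, 598 on untreated ob/ob and 1501 on NDGA-treated ob/ob (1.14), and Ppp1r3b, which brings the activating phosphatase to glycogen, was at 0.81 (mean over its probes 0.53). Fbp1 (0.18) and Pcx (-0.10) were close to 0. Hk2, a hexokinase scarce in normal liver, read 104 on WT chow, 299 on WT high-fat diet, 340.0 on high-fat diet with NDGA, 288 on untreated ob/ob and 647 on NDGA-treated ob/ob (1.18). Of 18 glycolysis and fructose genes, 3 reached 1.5-fold above chow and 1 reached it below (median 0.31), with Pgam1 at 0.76 and Tkfc, which phosphorylates glyceraldehyde from fructose, at 0.74.

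In insulin and leptin signalling, 0 of 24 genes were 2-fold apart (median 0.02). Insr, the insulin receptor, read 1165 on chow against 888 on high-fat diet (-0.37), Gsk3b, the kinase that restrains glycogen synthase, was at -0.89 (2119 on chow against 1116 on high-fat diet), and Igfbp1 at 0.85. Lepr, the leptin receptor, read 272 on chow against 504 on high-fat diet (0.78, with bright probes at 0.13 and 0.78). Irs1 (6.15 on chow against 7.61 on high-fat diet) and Lep (17.5 on chow against 10.1 on high-fat diet) were below the filter. Nrip1, a corepressor of metabolic nuclear receptors, was the only one of 30 nuclear receptors and coregulators past 2-fold on these arrays (1.01).

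Hormone-related genes of the liver held 3 large differences. Dio1, the deiodinase that turns thyroxine into active thyroid hormone, read 1803 on WT chow, 7051 on WT high-fat diet, 2687 on high-fat diet with NDGA, 2326 on untreated ob/ob and 3998 on NDGA-treated ob/ob, a difference of 1.94, and the high-fat array was the highest of the 5. Serpina7, the thyroxine-binding globulin of plasma, read 456 on WT chow, 1272 on WT high-fat diet, 896 on high-fat diet with NDGA, 862 on untreated ob/ob and 2514 on NDGA-treated ob/ob (1.39; its bright probes gave 0.48 and 1.39, mean 0.93). Cyp17a1 is described above. Thrsp, a lipogenic target of thyroid hormone, was level (-0.11), Me1 also (-0.04), and the receptors Thrb and Thra were at -0.31 and 0.32. Hsd17b6, a steroid dehydrogenase, read 2764 on WT chow, 8064 on WT high-fat diet, 4875 on high-fat diet with NDGA, 6984 on untreated ob/ob and 5521 on NDGA-treated ob/ob (1.53), and Fkbp5, a glucocorticoid target, was at 0.73 (65.2 on chow against 141 on high-fat diet).

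**Figure D3:**
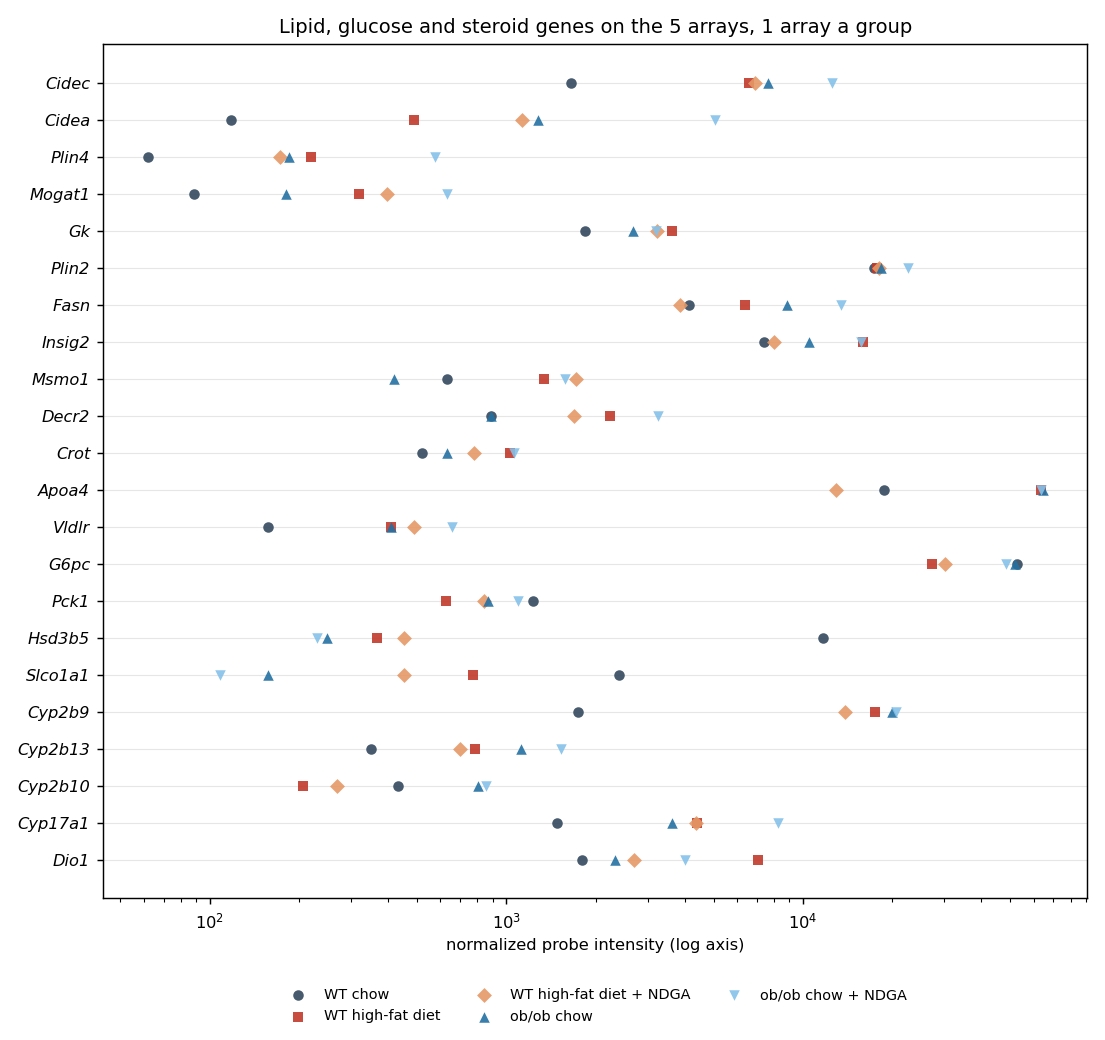
Normalized probe intensity (log axis) of 22 lipid, glucose and steroid genes on each of the 5 arrays, with 1 marker per array and 1 array a group. Chow (dark circles) is the lowest array for Cidec, Cidea, Plin4, Mogat1, Vldlr, Cyp2b9, Cyp2b13 and Cyp17a1 and the highest for Hsd3b5, Slco1a1 and Pck1, and Plin2 overlaps on chow and high-fat diet.

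Drug-metabolising enzymes split in direction. Of 24 expressed CYP2 and CYP3 genes, 3 reached 2-fold above chow (Cyp2b9, Cyp2b13, Cyp2d9) and 3 reached it below, and at 1.5-fold 3 were higher and 7 lower. Cyp2c29 read 1040 on WT chow, 200.1 on WT high-fat diet, 316 on high-fat diet with NDGA, 406 on untreated ob/ob and 321 on NDGA-treated ob/ob (-2.12), the chow array being the highest, and its bright probes differed (-2.12 and -0.92, mean -1.52). Cyp2c55 (-1.09, 4299 on chow against 1987 on high-fat diet) and Cyp2d34 (-1.04) were also lower, as was Cyp2r1, a vitamin D hydroxylase (-0.82, though its bright probes gave -0.82 and 0.33). Cyp2e1, the ethanol-oxidising enzyme, and Cyp1a2 were at 0.11 and 0.31. In conjugation and hydrolysis 7 of 31 genes reached 1.5-fold above chow and 3 reached it below. The acetyltransferase Nat2 (1.26, 575 on chow against 1449 on high-fat diet) and the sulfotransferase Sult1a1 (0.93) were the highest, and the carboxylesterase Ces2a the lowest beside Nat8 (-1.23, 256 on chow against 80.9 on high-fat diet). Alas1, which sets the rate of heme synthesis, read 11046 on WT chow, 26654 on WT high-fat diet, 36889 on high-fat diet with NDGA, 12486 on untreated ob/ob and 24943 on NDGA-treated ob/ob (1.27).

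Of 32 antioxidant genes, 6 reached 1.5-fold above chow and 3 reached it below (median 0.23). Gstm3, a glutathione transferase, read 168 on WT chow, 634 on WT high-fat diet, 247 on high-fat diet with NDGA, 1077 on untreated ob/ob and 2919 on NDGA-treated ob/ob (1.65), and Srxn1, which repairs over-oxidised peroxiredoxins, 297 on WT chow, 1022 on WT high-fat diet, 445 on high-fat diet with NDGA, 684 on untreated ob/ob and 1927 on NDGA-treated ob/ob (1.63, mean over its probes 1.26). The peroxiredoxin Prdx1 was at 0.79, its relative Prdx6 at 0.89 with bright probes from -0.31 to 0.89, and the heme oxygenase Hmox1 at 0.58, whereas catalase (Cat, -0.72) and Gpx2 (-0.67) were lower. Slc7a11, the cystine importer, was at -0.59, with a mean over its probes of -0.25. Of the metallothioneins, zinc-binding stress proteins, Mt2 read 1551 on WT chow, 5751 on WT high-fat diet, 6400 on high-fat diet with NDGA, 2416 on untreated ob/ob and 9059 on NDGA-treated ob/ob (1.86) and Mt1 24248 on chow against 42061 on high-fat diet (0.79). Among 44 alcohol, aldehyde and steroid dehydrogenases, Aldh1b1 (0.95) and Hsd17b12 (0.74) were at least 1.5-fold higher and Aldh2 was near saturation on both arrays.

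The acute phase response, in which the liver changes its secreted proteins under inflammatory cytokines, was mixed. Of 36 expressed genes, 4 reached 2-fold above chow and 2 reached it below, and at 1.5-fold the counts were 11 and 5 (median 0.39). Lcn2, an iron-scavenging lipocalin, read 60.6 on WT chow, 1221 on WT high-fat diet, 178 on high-fat diet with NDGA, 374 on untreated ob/ob and 873 on NDGA-treated ob/ob, a difference of 3.52 (11.5-fold), and passed the filter only through the high-fat array. Cd14, the endotoxin co-receptor, was at 1.17 (176 on chow against 459 on high-fat diet), Serpina3g at 1.02, Serpina3n at 0.90, Itih3 at 0.87, ceruloplasmin (Cp) at 0.86 with bright probes from -0.01 to 0.86, and haptoglobin (Hp) at 0.84 (16564 on chow against 29745 on high-fat diet). Orm2 was at 0.62 and its relative Orm1 at 0.02. The fibrinogen chains went the other way: Fgb read 6810 on WT chow, 2716 on WT high-fat diet, 4289 on high-fat diet with NDGA, 4299 on untreated ob/ob and 2581 on NDGA-treated ob/ob (-1.31) and Fgg 1344 on WT chow, 538 on WT high-fat diet, 944 on high-fat diet with NDGA, 1030 on untreated ob/ob and 740.4 on NDGA-treated ob/ob (-1.24), chow being the highest array for both. Socs3, a feedback inhibitor of interleukin-6 signalling, was at 0.33 (119 on chow against 163 on high-fat diet).

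Of 30 iron and heme genes, 8 reached 1.5-fold above chow and 1 reached it below (median 0.41, or 0.30 when dim genes are kept). Beside Lcn2 and Alas1 these included ferroportin, Slc40a1 (0.74, 6147 on chow against 10272 on high-fat diet), and the transferrin receptor Tfrc (0.63). Hamp, which encodes the iron hormone hepcidin, was at 0.55 (20437 on chow against 29908 on high-fat diet), and Tfr2, an iron sensor of hepatocytes, was lower (-0.73, 19449 on chow against 11690 on high-fat diet). In coagulation 4 of 28 genes reached 1.5-fold above chow and 2 reached it below (median 0.14), against 10.6% and 6.12% of all expressed genes. The lower genes were Fgb and Fgg, described above. Cpb2, an inhibitor of clot breakdown, was at 1.07, F13b at 0.88 and F9 at 0.86, and the antithrombin gene Serpinc1 was saturated on both arrays. In complement Mbl2, a mannose-binding lectin, was at 1.21 (3526 on chow against 8218 on high-fat diet), C1qb at 0.81 and C4a at 0.71, with C5ar1, the receptor of the anaphylatoxin C5a, at -0.95. C3, the central component, was level (-0.13).

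Macrophage markers formed the list with the highest median. Of 33 expressed markers out of 52 on the array, 8 reached 2-fold above chow and 0 reached it below (2.13% and 1.33% over all expressed genes). At 1.5-fold the counts were 18 and 1, and the median was 0.67 (0.44 when dim genes are kept). Mpeg1, a pore-forming protein of macrophages, read 259.8 on WT chow, 853 on WT high-fat diet, 279 on high-fat diet with NDGA, 413 on untreated ob/ob and 894 on NDGA-treated ob/ob (1.54). Adgre1, an adhesion receptor used to mark mouse macrophages, read 105 on WT chow, 319 on WT high-fat diet, 126 on high-fat diet with NDGA, 207 on untreated ob/ob and 498 on NDGA-treated ob/ob (1.25), and the scavenger receptor Marco 139.6 on WT chow, 399.8 on WT high-fat diet, 314 on high-fat diet with NDGA, 170.3 on untreated ob/ob and 147 on NDGA-treated ob/ob (1.25). Lgals3 (galectin-3) read 812 on WT chow, 2350 on WT high-fat diet, 894 on high-fat diet with NDGA, 4054 on untreated ob/ob and 4017 on NDGA-treated ob/ob (1.48), and Spp1 (osteopontin), also made by bile duct cells, was at 1.21. Csf1r, the receptor for the growth factor of macrophages, was at 1.09 (694 on chow against 1530 on high-fat diet), with a mean over its probes of 0.56, and Fcgr3 at 1.06. Lysosomal genes of phagocytes were higher by less, Cd68 at 0.76 (mean over its probes 0.52) and Ctsb at 0.95. Genes known from resident Kupffer cells went different ways. Marco above, C1qb (0.81) and the iron exporter Slc40a1 (0.74) were higher, whereas Clec4f read 779 on chow against 813 on high-fat diet (0.06), Timd4 253 on chow against 228 on high-fat diet (-0.13) and Vsig4 2220 on chow against 2279 on high-fat diet (0.04). In whole tissue, more cells of a type and more RNA per cell cannot be told apart.

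The summed intensity of the 13 macrophage markers used as a cell check was 7557 on WT chow, 11684 on WT high-fat diet, 6245 on high-fat diet with NDGA, 15167 on untreated ob/ob and 13635 on NDGA-treated ob/ob, with 11 of 13 expressed; Cd5l and Lyz2 were below the filter. These sums move with the macrophage list, and their part in the other differences was not tested. Markers of other leukocytes lay near or below chow. Of 12 expressed T and NK cell markers, 0 reached 1.5-fold in either direction (median -0.26, or -0.08 when dim genes are kept). Of 6 B cell markers 0 reached 1.5-fold above chow (median -0.18, or -0.07 when dim genes are kept). Among 9 neutrophil genes (median -0.30, or -0.05 when dim genes are kept) only Lcn2, which hepatocytes also make, was at least 1.5-fold higher on these arrays. Ngp read lower (-0.66), Mpo (-0.30) stayed within the disagreement of probes, and S100a8 and S100a9 were below the filter.

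Of 20 genes around NF-kB, a transcription factor of inflammation, 4 reached 2-fold above chow and 0 reached it below (median 0.32, or 0.12 when dim genes are kept). Bcl3, a nuclear partner of its p50 and p52 subunits, had the largest difference of all expressed genes at 4.01 (16.1-fold), with 724 on WT chow, 12392 on WT high-fat diet, 553 on high-fat diet with NDGA, 790.2 on untreated ob/ob and 611 on NDGA-treated ob/ob. Plau, the urokinase plasminogen activator, read 95.5 on WT chow, 1797 on WT high-fat diet, 130.4 on high-fat diet with NDGA, 115 on untreated ob/ob and 84.7 on NDGA-treated ob/ob (3.67). In both cases the high-fat array stood alone and the other 4 were close together. Vcam1, an adhesion molecule for leukocytes, read 847 on WT chow, 2066 on WT high-fat diet, 1103 on high-fat diet with NDGA, 2576 on untreated ob/ob and 2610 on NDGA-treated ob/ob (1.24, mean over its probes 0.58). Ikbke (0.93), Ikbkb (0.72) and Nfkb2 (0.70) were at least 1.5-fold higher, but Rela (0.12) and Nfkb1 (0.07) were level.

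Among 25 expressed chemokines and cytokines, 2 reached 2-fold above chow and 1 reached it below, with 4 against 2 at 1.5-fold (median -0.08). Cxcl1, which attracts neutrophils, read 642 on WT chow, 1821 on WT high-fat diet, 731 on high-fat diet with NDGA, 1255 on untreated ob/ob and 955 on NDGA-treated ob/ob (1.43). Ccl4 was at 1.17 (58.9 on chow against 194 on high-fat diet) and passed the filter only through high-fat diet. The lowest members were Ccl1 (-1.61) and Osm (-0.77). Ccl2, which recruits monocytes, was below the filter on the mean of the 2 arrays but read 26.8 on chow against 88.0 on high-fat diet. Tnf was at -0.51 (296 on chow against 194 on high-fat diet), and Il6 and Il1b (42.4 on chow against 44.9 on high-fat diet) were below the filter. Tgfb1, the main fibrogenic cytokine, read 106 on chow against 150.5 on high-fat diet (0.37). Of 28 interferon-induced genes, 7 reached 1.5-fold above chow and 0 reached it below (median 0.28), led by Cmpk2 (1.09), the GTPases Ifi47 (1.00, 1589 on chow against 3237 on high-fat diet), Gbp3 (0.98) and Igtp (0.86), and Ifi27 (0.90, mean over its probes 1.37). Antigen presentation genes went both ways, with H2-Aa, an MHC class II chain, at 0.93 (1147 on chow against 2227 on high-fat diet) and Tapbp at -0.60. Lipoxygenase genes, the targets of the drug used elsewhere in the series, were not higher: Alox5 read 369 on chow against 212 on high-fat diet (-0.68), Alox12 186 on chow against 214 on high-fat diet (0.16) and Alox15 was below the filter (4.56 on chow against 7.13 on high-fat diet), while Alox5ap, the partner protein of 5-lipoxygenase, was at 0.75 (656 on chow against 1136 on high-fat diet).

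Col1a2 and Col3a1, chains of the fibrillar collagens I and III, were among the highest genes on high-fat diet, while most collagens were not. Of 19 expressed collagen genes, 3 reached 2-fold above chow, 0 reached it below and the median was -0.10. Col1a2, below the filter on chow, read 86.2 on WT chow, 664 on WT high-fat diet, 209 on high-fat diet with NDGA, 354 on untreated ob/ob and 489 on NDGA-treated ob/ob (2.39), and Col3a1 219.5 on WT chow, 1693 on WT high-fat diet, 377 on high-fat diet with NDGA, 682 on untreated ob/ob and 1173 on NDGA-treated ob/ob (2.69, 1.39 as the mean of its probes). Col1a1, the other chain of type I collagen, was below the filter on the mean of the 2 arrays but read 44.1 on WT chow, 146 on WT high-fat diet, 53.5 on high-fat diet with NDGA, 98.0 on untreated ob/ob and 125 on NDGA-treated ob/ob (1.06). Col4a1, of basement membranes, read 179 on WT chow, 482 on WT high-fat diet, 180.4 on high-fat diet with NDGA, 304 on untreated ob/ob and 684 on NDGA-treated ob/ob (1.21), while its partner Col4a2 was at 0.41 and Col4a5 at -0.78 (mean over its probes -0.46). Other fibrillar chains were level or lower, with Col5a1 at 0.01, Col11a2 at -0.20, Col11a1 at -0.41 and Col5a3 at -0.50. For Col1a2, Col3a1, Col1a1 and Col4a1 the chow array was the lowest of the 5, by little against high-fat diet with NDGA for Col4a1.

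In the stellate cell and matrix list, 5 of 42 expressed genes reached 2-fold above chow and 0 reached it below, with 16 against 0 at 1.5-fold (median 0.36, or 0.12 when dim genes are kept). Over all expressed genes the shares at 1.5-fold were 10.6% and 6.12%. Sparc, a collagen-binding protein, read 143 on WT chow, 578 on WT high-fat diet, 164 on high-fat diet with NDGA, 286 on untreated ob/ob and 515 on NDGA-treated ob/ob (1.70). Vim, the intermediate filament of mesenchymal cells, read 519.5 on WT chow, 1738 on WT high-fat diet, 573 on high-fat diet with NDGA, 1181 on untreated ob/ob and 1873 on NDGA-treated ob/ob (1.65), and Spon2, a matrix protein, 393 on WT chow, 1263 on WT high-fat diet, 728 on high-fat diet with NDGA, 862 on untreated ob/ob and 2726 on NDGA-treated ob/ob (1.57). Tgfbi was at 1.03, Tenascin C (Tnc) at 0.74, Pdgfra at 0.69, decorin (Dcn) at 0.65 and Timp1 at 0.62, with Pdgfra and Timp1 below the filter on chow. Acta2, an actin that stellate cells make on activation, read 451 on WT chow, 983 on WT high-fat diet, 1868 on high-fat diet with NDGA, 1896 on untreated ob/ob and 1362 on NDGA-treated ob/ob (1.04), but its bright probes gave 0.09 and 1.04, and the mean over its probes was 0.23. Des, a filament of stellate cells, was level (-0.23), and so were Lrat (0.10), which stores vitamin A in them, and Cygb (0.02). The summed intensity of the 8 stellate cell and fibroblast markers was 2515 on the chow array and 5359 on the high-fat array, with 6 of 8 expressed, Pdgfrb and Col1a1 below the filter and 4 of the 8, Col1a1 among them, 2-fold or more above chow. The part of this cell type's share in the matrix genes was not tested.

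Among genes of the cell cortex and the cytoskeleton were some of the highest on high-fat diet. Anxa2, a membrane-binding annexin, read 775 on WT chow, 5512 on WT high-fat diet, 1874 on high-fat diet with NDGA, 4019 on untreated ob/ob and 9018 on NDGA-treated ob/ob, a difference of 2.75 (6.74-fold), and Anxa5 was at 1.25, Anxa4 at 1.13 and Anxa3 at 0.99, while Anxa6 was at -0.56. Of the tubulins Tubb2a read 1402 on WT chow, 4979 on WT high-fat diet, 1982 on high-fat diet with NDGA, 5543 on untreated ob/ob and 8218 on NDGA-treated ob/ob (1.79), Tubb6 was at 1.63, and Tubb5 was at -0.14. The hepatocyte keratins Krt8 (0.94, 198 on chow against 427 on high-fat diet) and Krt18 (0.97, 553 on chow against 1129 on high-fat diet) were higher together, whereas the bile duct keratins Krt19 (-0.09) and Krt7 (-0.14) were level. Ly6d, a surface protein of the LY6 family, read 52.5 on WT chow, 938 on WT high-fat diet, 369 on high-fat diet with NDGA, 2430 on untreated ob/ob and 3421 on NDGA-treated ob/ob (3.27), and passed the filter only through high-fat diet. Lgals1 (galectin-1) read 8116 on WT chow, 22917 on WT high-fat diet, 18800 on high-fat diet with NDGA, 22770 on untreated ob/ob and 29496 on NDGA-treated ob/ob (1.49), with chow lowest. Of 25 endothelial genes, 0 were 2-fold apart (median 0.19): the sinusoidal marker Lyve1 was at 0.89, and Stab1, Clec4g and Dnase1l3 lay within 0.01 of 0.

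**Figure D4:**
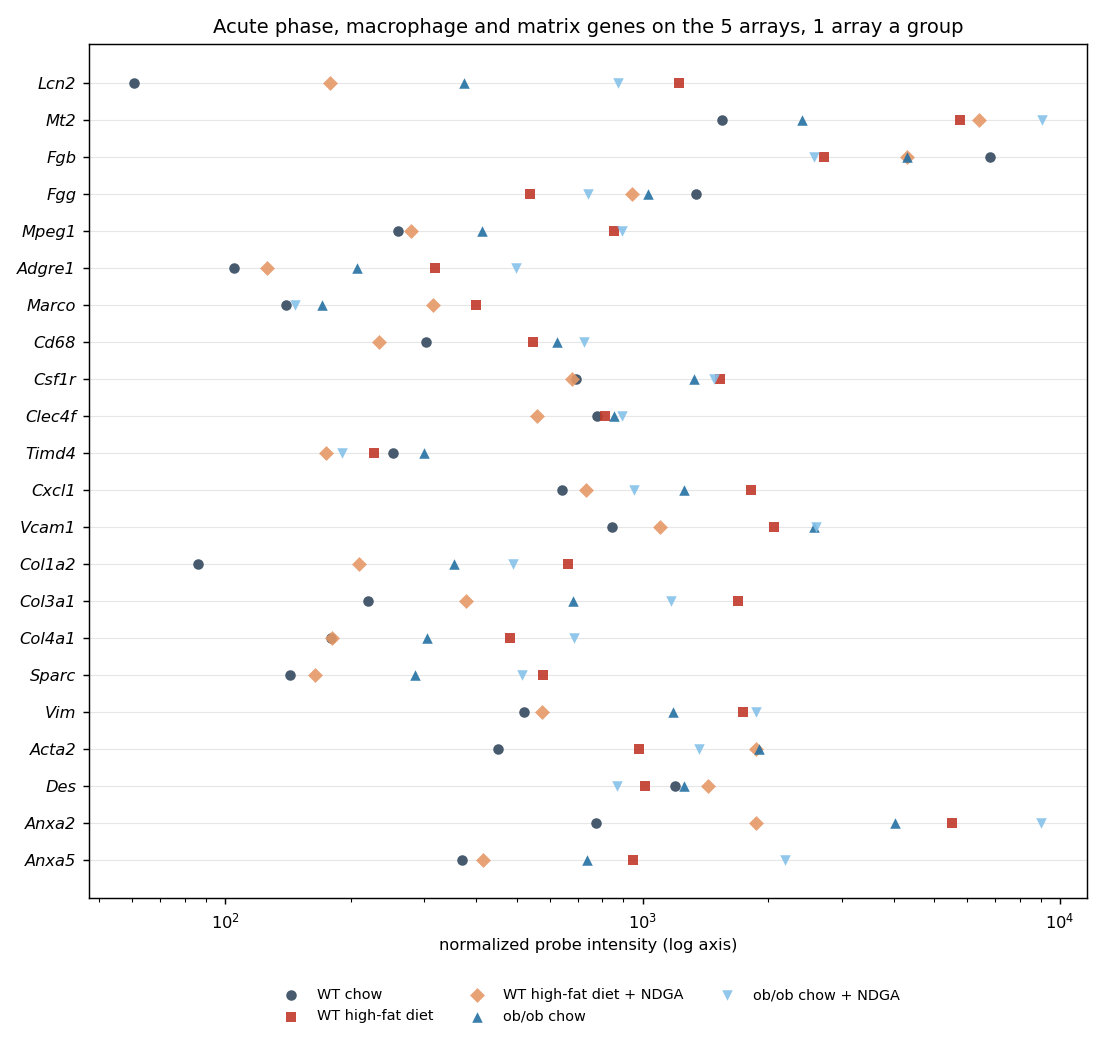
Normalized probe intensity (log axis) of 22 acute phase, macrophage and matrix genes on each of the 5 arrays, with 1 marker per array and 1 array a group. WT high-fat diet (red squares) lies above WT chow (dark circles) for Lcn2, Mpeg1, Col1a2, Sparc, Vim and Anxa2, below it for Fgb and Fgg, and next to it for Clec4f and Timd4.

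In the liver lobule, genes of hepatocytes around the central vein stood above chow more often than genes of those around the portal vein, a difference not tested. Of 15 pericentral genes, 3 reached 2-fold above chow and 0 reached it below, with 6 against 0 at 1.5-fold (median 0.46). Of 21 periportal genes 1 reached 2-fold above chow and 0 reached it below, with 3 against 2 at 1.5-fold (median 0.09). Hsd17b6 (1.53) was the highest periportal member, followed by Aldh1b1 (0.95), Cdh2 (0.59) and Uroc1 (0.51), and G6pc (-0.95) and Pck1 (-0.92) were the lowest. Glul, the glutamine synthetase of the last row of hepatocytes, read 13073 on WT chow, 31020 on WT high-fat diet, 23653 on high-fat diet with NDGA, 17730 on untreated ob/ob and 22220 on NDGA-treated ob/ob (1.24), and Nt5e, which makes adenosine, was at 1.21. Rhbg, an ammonium transporter of the same cells, was at 0.57 and Oat at -0.18. Of the other pericentral genes, Cyp2e1 (0.11) and Lect2 (0.05) were level, and Cyp27a1 was the lowest at -0.48. The periportal enzymes of the urea cycle, Cps1 (0.09), Asl (-0.33) and Arg1 (-0.23), were level. In amino acid breakdown 6 of 47 genes reached 1.5-fold above chow and 3 reached it below (median 0.08). Bckdhb, of the branched-chain ketoacid dehydrogenase, was at 1.10 (1508 on chow against 3283 on high-fat diet), while Csad (-0.78) and Cdo1 (-0.65), which make taurine from cysteine, were lower.

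Genes of mitochondrial respiration and of amino acid breakdown reached 1.5-fold about as often as all expressed genes did (10.6% above and 6.12% below). Of 55 genes of oxidative phosphorylation, 7 reached 1.5-fold above chow and 3 reached it below (median 0.19). Ndufa5 (1.00, mean over its probes 0.48), Ndufb4 (0.98) and Cox7b (0.87) were highest, and Sdha (-0.81) and Cyc1 (-0.67) lowest. The citric acid cycle had Mdh2 at 0.97 and Idh3a at 0.69. Of 26 proteasome subunits, 5 reached 1.5-fold above chow and 0 reached it below (median 0.27), with Psmd8 at 0.84 and Psmc1 at 0.77, and among ribosomal proteins 1 of 16 reached it above chow (median 0.11). Among endoplasmic reticulum chaperones 3 of 30 reached 1.5-fold above chow and 1 reached it below (median 0.06), also close to that background, with Hspa5, the sensor chaperone BiP, at -0.17 and Dnajb9 at 0.92. In the integrated stress response Ddit3, which encodes CHOP, was at 0.00, Atf4 at 0.45 and Ppp1r15a at -0.62. Hspa9, the mitochondrial HSP70, was at 1.14 (565 on chow against 1302 on high-fat diet).

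Of 19 clock genes, 0 were 2-fold apart, with Per2 at 0.68, Nr1d1 at 0.11 and Dbp at 0.28. In the cell cycle list 3 of 26 genes reached 2-fold above chow and 2 reached it below, with 5 against 4 at 1.5-fold (median 0.02). Its lowest member was E2f7 (-5.06), described below. Ccnd1, which encodes cyclin D1, read 394 on WT chow, 1146 on WT high-fat diet, 542 on high-fat diet with NDGA, 775 on untreated ob/ob and 763 on NDGA-treated ob/ob (1.43, 1.14 as the mean of 4 bright probes that ran from 0.41 to 1.54). Mcm6, a subunit of the replicative helicase, was at 1.11, Ccng1 at 1.00 and Cdkn1a, which encodes the cell cycle inhibitor p21, at 0.90 (625 on chow against 1210 on high-fat diet, mean over its probes 1.37). Mitotic genes such as Plk1 (-0.29) and Birc5 (0.13) were level, and Myc was at -0.80 (mean over its probes -0.36). Gadd45g, a growth arrest gene, was lower, with 1919 on WT chow, 669.5 on WT high-fat diet, 958 on high-fat diet with NDGA, 1139 on untreated ob/ob and 920.3 on NDGA-treated ob/ob (-1.45). Of 21 apoptosis genes only the droplet gene Cidea was at least 1.5-fold higher on these arrays, and Bcl2 was at -0.80 (4866 on chow against 2778 on high-fat diet, mean over its probes -0.21).

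Several of the highest genes stand outside these groups. Vps35, a retromer subunit that sorts cargo out of endosomes, read 202 on WT chow, 1654 on WT high-fat diet, 238 on high-fat diet with NDGA, 234 on untreated ob/ob and 587 on NDGA-treated ob/ob (2.76). Tsc22d1, a transcription regulator first found through TGF-beta, read 1016 on WT chow, 3785 on WT high-fat diet, 1095 on high-fat diet with NDGA, 1270 on untreated ob/ob and 3583 on NDGA-treated ob/ob (1.85), so that chow, high-fat diet with NDGA and ob/ob chow lay together below the others. Themis, a T cell gene, was at 1.84 (192 on chow against 817 on high-fat diet), although 11 of the 12 expressed T and NK cell markers lay below 0 and the other, Zap70, was at 0.58. Tnnt3, a troponin of fast muscle, was at 1.90 (73.3 on chow against 409 on high-fat diet), and passed the filter only through high-fat diet. Of the 17 expressed muscle genes 5 lay above 0, next highest Tpm2 (0.68), and 12 below, the lowest being Myh2 (-1.39) and Tnnc2 (-1.34). Yipf5 (1.72), a Golgi protein, and Gpc1 (1.63, 0.87 as the mean of its probes), a cell-surface glypican, were higher too. On 7 of the 177 genes the high-fat array read at least 4-fold above each of the other 4 arrays, each gene read by its brightest probe. Besides Bcl3 and Plau they were Usp37, Fam83h, B3galt6, Vps72 and Dlc1. Of these, Usp37, Fam83h and B3galt6 were below the filter on chow and passed it only through high-fat diet. Usp37, a deubiquitinase, read 17.9 on WT chow, 669.6 on WT high-fat diet, 13.6 on high-fat diet with NDGA, 13.7 on untreated ob/ob and 16.2 on NDGA-treated ob/ob (3.40, 1.78 as the mean of its probes), Fam83h 7.21 on chow against 384 on high-fat diet (2.92), B3galt6 14.6 on chow against 503 on high-fat diet (3.10, mean 1.64), Vps72 213 on chow against 1524 on high-fat diet (2.58) and Dlc1 302 on chow against 1418 on high-fat diet (2.06, mean 0.63).

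The lowest genes held few known liver genes. E2f7, a repressor of cell cycle genes, had the lowest difference of all at -5.06, with 3197 on WT chow, 47.3 on WT high-fat diet, 49.5 on high-fat diet with NDGA, 64.4 on untreated ob/ob and 43.4 on NDGA-treated ob/ob. Krt5, a keratin of basal epithelium, read 441 on WT chow, 19.4 on WT high-fat diet, 22.3 on high-fat diet with NDGA, 24.9 on untreated ob/ob and 18.1 on NDGA-treated ob/ob (-2.82). With Hsd3b5 and Slc16a7 these made the 4 genes on which chow read at least 4-fold above each other array. Next came probes bright on every array but unequal: Mc1r, the melanocortin receptor of pigment cells, read 39520 on WT chow, 7783 on WT high-fat diet, 12678 on high-fat diet with NDGA, 2750 on untreated ob/ob and 1102 on NDGA-treated ob/ob (-2.34), and Trpm5, a channel of taste cells, 17582 on WT chow, 4307 on WT high-fat diet, 7341 on high-fat diet with NDGA, 1020 on untreated ob/ob and 379 on NDGA-treated ob/ob (-2.02, -1.04 as the mean of its probes). Noxo1, an organiser of NADPH oxidase, read 3940 on WT chow, 959 on WT high-fat diet, 1332 on high-fat diet with NDGA, 485 on untreated ob/ob and 231 on NDGA-treated ob/ob (-1.98), and Grifin, a lens galectin, 3112 on WT chow, 909 on WT high-fat diet, 1487 on high-fat diet with NDGA, 590.1 on untreated ob/ob and 330.2 on NDGA-treated ob/ob (-1.72). For Mc1r, Trpm5, Noxo1 and Grifin the order from high to low was WT chow, high-fat diet with NDGA, WT high-fat diet, ob/ob chow and ob/ob chow with NDGA. Irf2, a transcription factor of the interferon system, read 7565 on WT chow, 2341 on WT high-fat diet, 5468 on high-fat diet with NDGA, 978 on untreated ob/ob and 642 on NDGA-treated ob/ob (-1.67), and Rassf2, of the RAS association family, 5062 on WT chow, 1520 on WT high-fat diet, 2820 on high-fat diet with NDGA, 731 on untreated ob/ob and 351 on NDGA-treated ob/ob (-1.70), in that order as well. Bche, which encodes the plasma enzyme butyrylcholinesterase made by liver, read 515 on WT chow, 138 on WT high-fat diet, 155 on high-fat diet with NDGA, 42.1 on untreated ob/ob and 40.4 on NDGA-treated ob/ob (-1.59), and Foxq1, a forkhead factor, 699 on WT chow, 185 on WT high-fat diet, 167 on high-fat diet with NDGA, 228 on untreated ob/ob and 133 on NDGA-treated ob/ob (-1.67). Ccl1 (-1.61, 1104 on WT chow, 328 on WT high-fat diet, 555 on high-fat diet with NDGA, 912 on untreated ob/ob and 746 on NDGA-treated ob/ob) and Il17c (-1.54, 11362 on WT chow, 3881 on WT high-fat diet, 6110 on high-fat diet with NDGA, 8569 on untreated ob/ob and 3931 on NDGA-treated ob/ob) were cytokine genes among the lowest, with ob/ob chow nearer to WT chow than for Mc1r.

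Olfactory receptor genes, which liver is not known to use, served as a reading of probes without a liver target. Of 689 on the array, 161 passed the filter, and of these 0 reached 2-fold above chow and 11 reached it below, with 0 against 29 at 1.5-fold (median -0.31, or -0.07 when dim genes are kept). Olfr398 read 1770 on WT chow, 444 on WT high-fat diet, 821 on high-fat diet with NDGA, 239 on untreated ob/ob and 165 on NDGA-treated ob/ob (-1.88) and Olfr355 2567 on WT chow, 785 on WT high-fat diet, 1611 on high-fat diet with NDGA, 251 on untreated ob/ob and 116 on NDGA-treated ob/ob (-1.65). Of the 161, 31 lay above 0 and 130 below. The lists of muscle (-0.28 over 17 genes, -0.09 when dim genes are kept) and exocrine pancreas (-0.45 over 8, -0.09 when dim genes are kept) also had medians below 0. The part of such probes in the count of 111 lower genes was not tested. Across all 1235 expressed genes of the lists, olfactory receptors left out, 75 stood 2-fold or more above chow and 20 below (median 0.15), and outside the lists 102 of 7084 were higher and 91 lower (median -0.03).

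**Figure D5:**
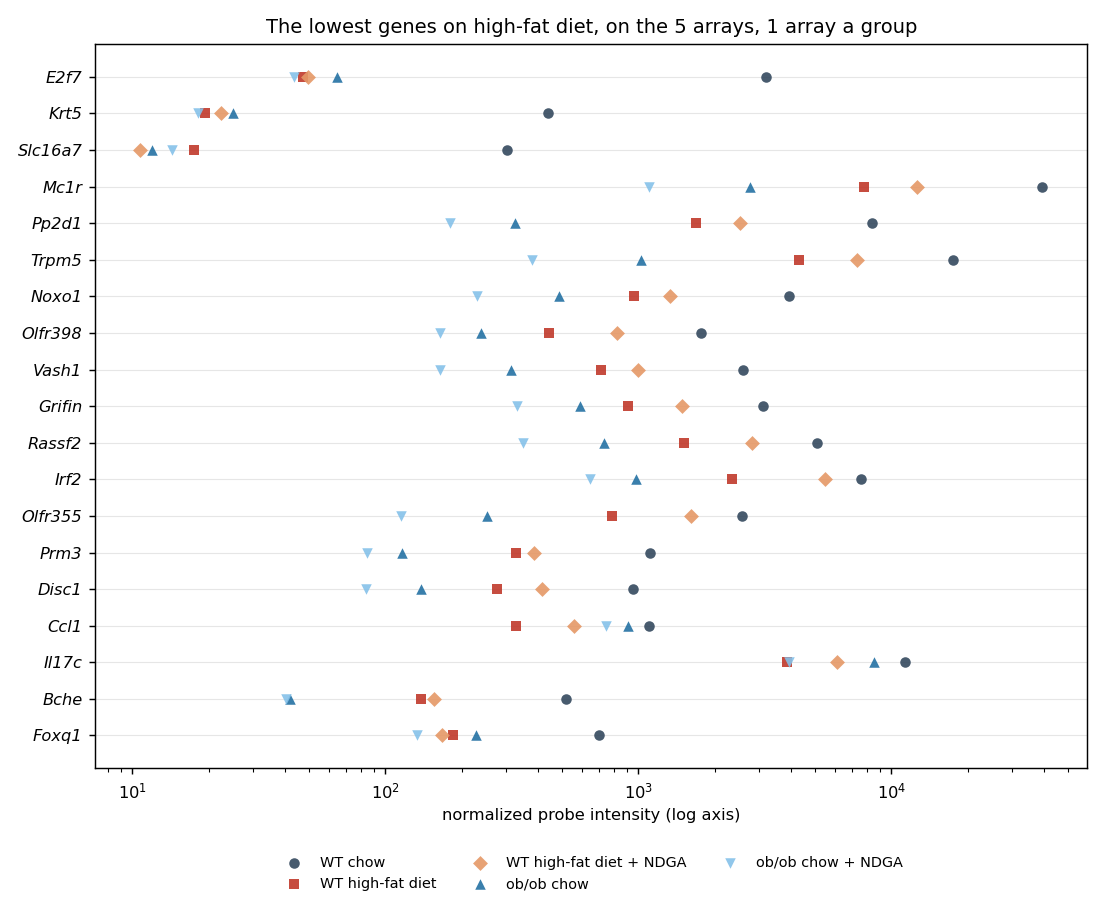
Normalized probe intensity (log axis) of 19 of the lowest genes on high-fat diet on each of the 5 arrays, with 1 marker per array and 1 array a group. For E2f7, Krt5 and Slc16a7 WT chow (dark circles) stands alone, and for Mc1r, Trpm5, Noxo1 and Grifin the arrays spread in the order given in the text, with ob/ob chow with NDGA lowest.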

How the data were processed

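The deposited values are linear probe intensities of 29922 probes on 5 arrays, with values below 0 and a pile-up above 65000 that marks saturation. How the authors scanned, background-corrected and scaled the arrays is not stated in these sources. A single symbol was found for 21020 probes in the platform annotation; the other 8902 were left unnamed. Updating the symbols with RefSeq (GRCm38.p6) gave 16637 genes. The 5 arrays were quantile normalized, 50 was added, log2 was taken, and the probe brightest on average across the 5 arrays stood for each gene. The filter was the 50th percentile of the mean of the 2 arrays. Array number limits the precision, and the files give no depth. The steps were run on a copy of the chow array with added noise and known differences put into genes of middle brightness. That noise was smaller than the disagreement of probes here. The run therefore checks the code only, not how often 2-fold is reached without a true difference. Python 3.11.15, numpy 2.4.6, pandas 2.3.3 and statsmodels 0.14.6 were used.

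Genes were named by rule: the 30 highest and 30 lowest expressed genes, members of 75 gene lists at least 1.5-fold apart or otherwise the 6 most different and the brightest of a list, and fixed names such as Ppara; further members are named beside them, chosen after their values were seen, and not all that the rule allows are named. The members and lists were chosen with earlier results of these data known. A total of 11 alternatives were run. A probe saturated on 1 array gives a bound, and on both arrays no fold.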

Additional observations from a re-analysis of the deposited data

How the results depend on the processing

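The direction of every named gene at least 2-fold apart held under each of the 11 alternatives that gave it a value. Without the filter on dim genes 192 genes were at least 2-fold higher, with an offset of 16 it was 244. Only 2 settings moved that count by over 1.5 times from 177: a floor at the 25th percentile in place of the offset gave 294, and the filter at the 75th percentile, which tests fewer genes, gave 115. The count of lower genes ran from 87 with probes of a gene averaged to 145 with the floor, against 111. The mean of probes also took 20 of 130 named genes below 2-fold, and 136 of its 143 higher genes were among the 177. Of the list medians, that of lipid droplet proteins turned from 0.34 to -0.01 with the filter at the 75th percentile, where fewer members pass. No paired analysis was possible because each group has 1 array. Background signal limits dim genes such as Fam83h, and saturation limits Apoa4. With the floor, differences against a signal near background grew, to 5.15 for Fam83h, 5.22 for Usp37, 5.11 for B3galt6, 1.11 for Fkbp5, -4.51 for Krt5, -4.11 for Slc16a7 and -1.71 for Dao.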
